A study of Mus musculus with 16 samples.

Results

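The 8 YAP-responsive genes Ctgf, Cyr61, Thbs1, Ankrd1, Amotl2, Ajuba, Axl and Tgfbi were followed across the cell classes of the diabetic mouse kidney. They were taken by gene symbol from the 31053 features of the count matrices, and each of the 8 symbols occurred once. Their unique molecular identifiers (UMIs, counted RNA molecules) were summed per library and cell class and expressed as CPM, the counts for each 1000000 UMIs of that sum. All tests of genotype and age below use 1 sum per library as the replicate, while shares of cells with a UMI are pooled over libraries and were not tested.

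The study profiled single kidney cells of BTBR ob/ob mice, a leptin-deficient strain that develops type 2 diabetes and kidney disease (diabetic nephropathy, DN), and of BTBR +/+ control mice. Both genotypes carried the ROSA26 mT/mG reporter, which switches from membrane tdTomato to membrane EGFP, and a Cre transgene driven by a podocyte gene promoter, so the controls carried the same alleles other than ob. Female and male mice were taken at 6 weeks, chosen by the study as the onset of disease, and at 12 weeks, chosen as early DN. Each of the 8 groups of genotype, sex and age had 2 libraries, 16 in all and 4 per genotype and age, and each library came from both kidneys of 1 mouse after removal of the papilla and depletion of proximal tubule by density gradient.

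YAP and its paralog TAZ are transcriptional co-activators held in the cytoplasm by the LATS kinases of the Hippo pathway. When cells spread, stretch or sit on a stiff matrix they enter the nucleus and bind TEAD factors, whose recognition element contains the letters GGAATG. Several of the best-known target genes encode matricellular proteins, which are secreted into the matrix and act on cells through integrins and growth factors rather than as structural fibres. In the glomerulus, endothelial cells, podocytes and mesangial cells are all exposed to mechanical load from capillary pressure.

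The TEAD letters were searched for in the 250 bases before each member's RefSeq start (GRCm38.p6), and the matches are shown because the TEAD recognition element contains these letters. The members were taken by symbol and not by these letters. On either strand, 4153 of 32851 mouse promoters of this length (12.6%) held GGAATG. Among the 6 members with an entry, Cyr61, Ankrd1, Amotl2, Ajuba and Axl held at least 1 match, and Tgfbi held none of these letters in this window. The sequences below are 30 bases, read 5′ to 3′ on the gene's strand, and capitals mark the TEAD letters, which read CATTCC where they lie on the other strand.
Cyr61: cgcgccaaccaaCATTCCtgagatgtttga
Ankrd1, first: gtcactgccaaaGGAATGaccctctcacat
Ankrd1, second: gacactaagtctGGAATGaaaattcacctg
Amotl2: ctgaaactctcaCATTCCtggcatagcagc
Ajuba, first: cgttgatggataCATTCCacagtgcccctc
Ajuba, second: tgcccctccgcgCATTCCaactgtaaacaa
Axl: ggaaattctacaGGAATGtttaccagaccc
The Cyr61 window lay at chr3:145650071-145650100 on the minus strand, 103 to 98 bases before the start. The Ankrd1 windows lay at chr19:36120037-36120066 and chr19:36119950-36119979 on the minus strand, 210 to 205 and 123 to 118 bases before the RefSeq start. The Amotl2 window lay at chr9:102717727-102717756 on the plus strand, 65 to 60 bases before the start. The Ajuba windows lay at chr14:54577830-54577859 and chr14:54577808-54577837 on the minus strand, 186 to 181 and 164 to 159 bases before the start, and their ends overlap. The Axl window lay at chr7:25788949-25788978 on the minus strand, 233 to 228 bases before the start. In the GENCODE annotation of that build the Cyr61, Ajuba and Axl windows lay in no annotated gene, whereas the Ankrd1 and Amotl2 windows lay in annotated exons of their own genes, which start further upstream there. A match is a description of the letters and not evidence of binding, and no promoter entry was used for Ctgf or Thbs1.

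The gene bodies, in the same build, were Ctgf at chr10:24595442-24598683, Cyr61 at chr3:145646976-145649981, Thbs1 at chr2:118111876-118127133 and Ankrd1 at chr19:36111961-36120099. Amotl2 lay at chr9:102716672-102733418, Ajuba at chr14:54567472-54577558, Axl at chr7:25757273-25788705 and Tgfbi at chr13:56609523-56639562. Ctgf overlaps the annotated antisense gene Gm15270 and Thbs1 overlaps Gm29233. Cell Ranger, with which the authors counted, assigns to a gene only reads of that gene's strand.

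The matrices held 116439 barcodes and 1267078476 UMIs, and 94436 barcodes passed quality filters. Depth and shared barcodes set the libraries apart in 2 sets. In 12 libraries there were 83410397 to 125551519 UMIs each, and in replicate 1 of each of the 4 female groups 10510855 to 21728793. Pairs of libraries shared 0.108 to 1.43% of barcodes within these sets and at most 0.0589% across them. Clustering without the members gave 51 clusters, of which 15 (16065 cells) stayed unnamed, and after removal of marker doublets 70559 cells remained in 16 classes called "-like" from their markers. The unnamed share was 42.8% of named and unnamed cells in control male 6-week replicate 2, which also had the lowest median of 698 UMIs per barcode, and 32.5% in control female 12-week replicate 2, against 5.57 to 18.0% in the other libraries. Member calls that were lost without either library are named beside them. Although the labels name glomeruli, the proximal tubule (PT)-like class was the largest with 16928 cells. The mesangial-like class held 3339 cells, the podocyte-like class 1180, the glomerular endothelial-like class 6141 and the smooth muscle and renin-like class 1796. Mesangial-like cells had all 6 of 6 fixed mesangial markers, which summed to 15106 to 18402 CPM over the libraries, and podocyte-like cells 8 of 8 podocyte markers at 14584 to 19425 CPM. Before doublet removal the podocyte-like class joined a cluster of 974 cells, at 1.24 times its libraries' median depth, with a shallow one of 689 cells, at 0.155 times. Of the latter 36.6% came from 1 library. A shallow cluster with 6 mesangial markers, at 0.122 times, stayed unnamed.

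The levels of each member across classes are described first. Means and standard deviations (SD) are over 16 libraries, or over 15 for podocyte-like cells, since DN female 6-week replicate 1 had 9 such cells and at least 10 were required. For the same reason they are over 15 libraries for mitotic-like cells and over 12 for peritubular and venous endothelial-like cells. Classes that were neighbours in the order of mean CPM were compared by an exact two-sided sign-flip permutation test over libraries on log2(CPM + 1), with Benjamini-Hochberg adjustment over 120 such comparisons. Of these, 24 differed and 96 did not differ beyond the spread between libraries. The order pools both genotypes and ages, so that a pair of classes can lie in opposite orders in control and DN mice. The 12-week group means are given for some of the leading classes where this was seen, and not for every such pair.

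**Figure D1:**
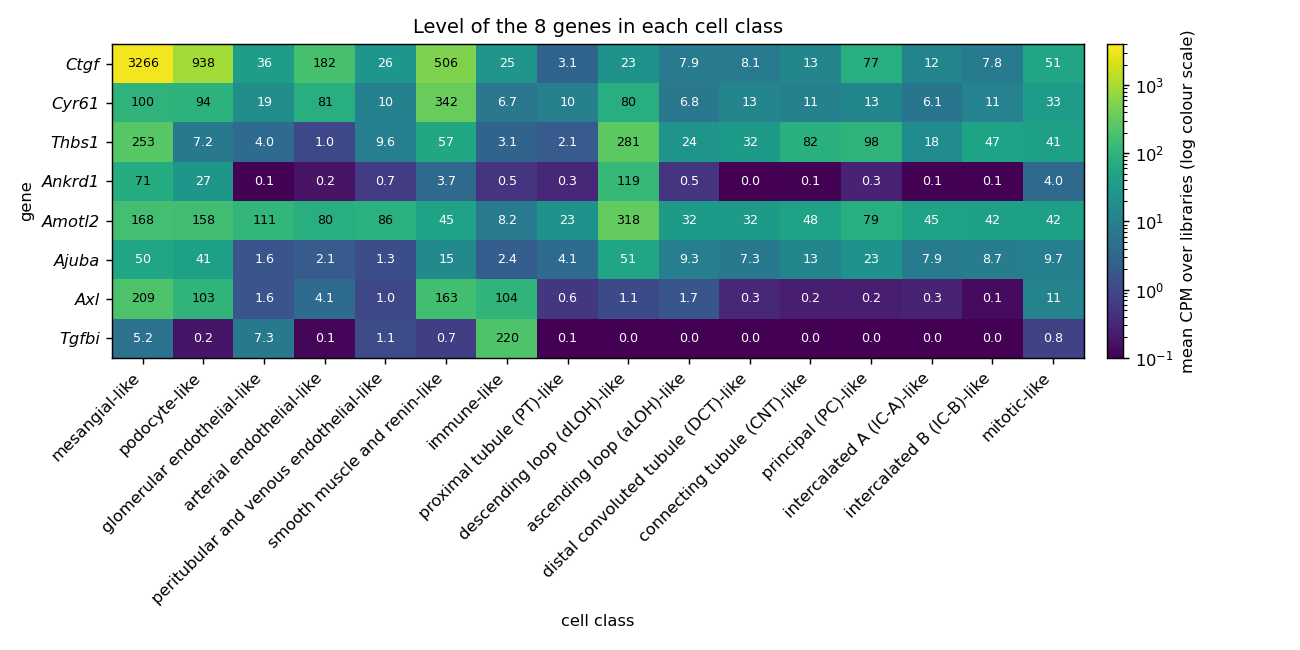
Heat map of the mean level of each member (rows, 8 genes) in each of the 16 cell classes (columns), in CPM on a logarithmic colour scale, averaged over libraries with at least 10 cells. The mesangial-like column is the highest for Ctgf and Axl, the smooth muscle and renin-like column for Cyr61, the descending loop-like column for Thbs1, Ankrd1, Amotl2 and Ajuba, and the immune-like column for Tgfbi.

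Ctgf, which encodes the secreted CCN-family protein connective tissue growth factor, was a mesangial-like transcript. Its level there was 3266 ± 642 CPM (SD, n = 16), with a range of 2120 to 4201, and mesangial-like cells supplied 74298 of the 102070 Ctgf UMIs of all classes (72.8%). Podocyte-like cells followed at 938 ± 788 CPM (n = 15), lower than mesangial-like cells in 15 of 15 libraries by 2.26 on the log2 scale (adjusted p = 0.00244). Smooth muscle and renin-like cells had 506 ± 120 CPM and in the pooled libraries did not differ from podocyte-like cells beyond the spread (adjusted p = 0.328). At 12 weeks the mean of podocyte-like cells was the lower in control mice (293 and 369 CPM) and the higher in DN mice (1401 and 548 CPM). Smooth muscle and renin-like cells exceeded arterial endothelial-like cells, at 182 ± 157 CPM, in 14 of 16 libraries (adjusted p = 0.00403). Principal-like cells of the collecting duct had 77.1 ± 59.2 CPM, glomerular endothelial-like cells 36.4 ± 21.4 CPM, and PT-like cells were last at 3.08 ± 2.11 CPM.

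Cyr61, the CCN-family relative of Ctgf, had another order. It was highest in smooth muscle and renin-like cells at 342 ± 136 CPM, above mesangial-like cells in 16 of 16 libraries (adjusted p = 0.00183). Mesangial-like, podocyte-like, arterial endothelial-like and descending loop-like cells lay close together between 79.8 and 100.03 CPM, and no neighbours among them differed beyond the spread of the pooled libraries. At 12 weeks mesangial-like cells lay below descending loop-like cells in control mice (means of 40.5 and 114 CPM) and above them in DN mice (167 and 61.7 CPM). Glomerular endothelial-like cells had 18.8 ± 15.2 CPM. The remaining classes of the nephron and collecting duct lay between 6.12 CPM in intercalated A-like cells and 13.1 CPM in principal-like cells, with 10.2 ± 3.41 CPM in PT-like cells.

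Thbs1 encodes thrombospondin-1, a matricellular glycoprotein that can release TGF-beta from its latent form. Descending loop-like cells had 281 ± 149 CPM and mesangial-like cells 253 ± 170 CPM, and in the pooled libraries these did not differ beyond the spread (adjusted p = 0.678). At 12 weeks descending loop-like cells had the higher mean in control mice (309 and 109 CPM) and the lower in DN mice (207 and 384 CPM). Mesangial-like cells exceeded principal-like cells, at 97.9 ± 21.0 CPM, in 13 of 16 libraries (adjusted p = 0.0126). Connecting tubule-like cells had 82.0 ± 39.4 CPM. Podocyte-like cells had 7.16 CPM, glomerular endothelial-like cells 4.02 CPM, and arterial endothelial-like cells were last at 0.996 CPM. Principal-like cells, being numerous, supplied the largest part of Thbs1 UMIs, 22.7% against 19.5% from mesangial-like cells.

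Tgfbi, a secreted integrin-binding matrix protein named for its induction by TGF-beta, stood apart from the other secreted members. Immune-like cells had 220 ± 97.6 CPM and supplied 610 of its 944 UMIs (64.6%), and they exceeded glomerular endothelial-like cells, at 7.31 ± 6.20 CPM, in 16 of 16 libraries (adjusted p = 0.00183). This class came from a cluster led by C1qa, C1qb and C1qc and does not stand for all immune cells. An unnamed cluster of 372 cells, led by Ccl5, Trbc2 and Gzma, held 0 Tgfbi UMIs. Mesangial-like cells had 5.20 ± 7.66 CPM, of which DN female 6-week replicate 2 alone reached 32.7 CPM and the other 15 libraries lay between 0 and 7.44 CPM. The remaining classes had mean levels of 0 to 1.12 CPM.

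Ankrd1 encodes a nuclear ankyrin-repeat protein that is known in muscle as a stretch-responsive cofactor. Its level was 119 ± 39.4 CPM in descending loop-like cells, 71.4 ± 59.5 CPM in mesangial-like cells and 27.4 ± 20.5 CPM in podocyte-like cells. Each of these steps held up in the pooled libraries: descending loop-like over mesangial-like cells in 14 of 16 libraries (adjusted p = 0.0165) and mesangial-like over podocyte-like cells in 12 of 15 (adjusted p = 0.0126). In DN mice, however, descending loop-like and mesangial-like cells were close, with means of 118 and 123 CPM at 6 weeks and 119 and 107 CPM at 12 weeks. The next class, mitotic-like cells, had 3.96 CPM, below podocyte-like cells by 3.23 on the log2 scale (adjusted p = 0.00366). Mesangial-like and descending loop-like cells together held most Ankrd1 UMIs, with 51.3% and 38.2%.

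Amotl2, an angiomotin-family protein that binds YAP at cell junctions and restrains it, and Ajuba, a LIM-domain adaptor that binds LATS kinases, were expressed more widely. Amotl2 was highest in descending loop-like cells at 318 ± 146 CPM, above mesangial-like cells at 168 ± 55.1 CPM in 15 of 16 libraries (adjusted p = 0.00262), with podocyte-like cells and glomerular endothelial-like cells (111 ± 44.6 CPM) following. Immune-like cells were last at 8.20 ± 10.5 CPM. Ajuba had 50.9 ± 11.8 CPM in descending loop-like cells, 50.1 ± 14.1 CPM in mesangial-like cells and 41.2 ± 17.8 CPM in podocyte-like cells, none of which differed from its neighbour beyond the spread. Podocyte-like cells exceeded principal-like cells, at 23.1 ± 7.62 CPM, in 13 of 15 libraries (adjusted p = 0.00466).

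Axl, the receptor tyrosine kinase for the ligand Gas6, was found in mesangial-like, smooth muscle and renin-like, immune-like and podocyte-like cells. Mesangial-like cells had 209 ± 58.3 CPM (range 138 to 342) and supplied 56.4% of its UMIs, and they exceeded smooth muscle and renin-like cells, at 163 ± 34.8 CPM, in 12 of 16 libraries (adjusted p = 0.0151). Immune-like cells had 104 ± 89.5 CPM and podocyte-like cells 103 ± 38.0 CPM, which did not differ beyond the spread (adjusted p = 0.328). Below them mitotic-like cells had 11.4 CPM, and the tubular classes had at most 1.70 CPM.

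The genes whose class pattern was most like a member's were sought among 12731 genes by Pearson's r of log2(mean CPM + 1) over the 16 classes, as a description, since the classes share libraries and depth. For Ctgf these were Nek9 (0.947), Myo1e (0.914) and Robo1 (0.910), and for Cyr61 they were Kank2 (0.908), Esyt2 (0.875) and Gid4 (0.872). Genes like Thbs1 included Zfp943 (0.869) and Zfp428 (0.860), and those most like Ankrd1 were Aldh1a2 (0.895), Map3k7 (0.891) and Hs6st2 (0.889). For Amotl2 they were Ginm1 (0.961), Zfp383 (0.944) and Atxn7l3b (0.918), and for Ajuba Fgfr2 (0.938), Ahi1 (0.930) and Carf (0.921). Axl resembled Ggt5 (0.939), Rnf150 (0.925) and Lrp1 (0.920), and Tgfbi the immune-cell genes Itgb7 (0.974), Tmem156 (0.961) and Cd37 (0.959). Between members the closest pairs were Ctgf and Cyr61 (r = 0.797), Ctgf and Axl (r = 0.791) and Thbs1 and Ajuba (r = 0.771).

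The question put to the members in DN was whether they changed at 6 or 12 weeks and in which cells. Summed counts were tested by edgeR's quasi-likelihood test with 4 genotype-by-age means and sex within age, and p-values were adjusted by Benjamini-Hochberg over all genes of a class and comparison. At 12 weeks 73 tests of members in 15 classes were possible and 7 passed at an adjusted p of 0.05 (9.59%), all higher in DN, whereas 0.503% of all 139670 gene tests passed in either direction and 0.308% passed as higher. After the filter on low counts, Ctgf, Cyr61 and Amotl2 were tested in 14 classes each, Thbs1 and Ajuba in 11, Axl in 4, Ankrd1 in 3 and Tgfbi in 2. Of the 7, 3 were in mesangial-like cells and 2 each in podocyte-like and connecting tubule-like cells. DESeq2 called 9, against 0.934% of all gene tests, and 23 of the 73 had an unadjusted p under 0.05. Counts of unadjusted p under 0.05, here and below, have no share of all genes beside them and are given as description. Same-numbered libraries deviated together, and with the replicate number as a block 21 of the 73 passed (28.8%) against 3.68% of all gene tests. The labels do not say whether same-numbered mice were paired. The DN and control libraries did not overlap in 12 of the 73, against 4.03% of all gene tests. The members were chosen with earlier results of these data known. Their shares beside all genes, here and below, are therefore a description and not independent support.

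Mesangial-like cells held the most members that rose. Cyr61, Thbs1 and Ankrd1 were each upregulated, by 3.71- to 4.43-fold, at 12 weeks, while Ctgf, Amotl2, Ajuba and Axl did not pass. In this class 3.32% of all genes passed at 12 weeks and 12.7% with the replicate block, and the libraries of the genotypes did not overlap in 8.16%. At 6 weeks these were 0.345%, 4.08% and 3.32%.

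**Figure D2:**
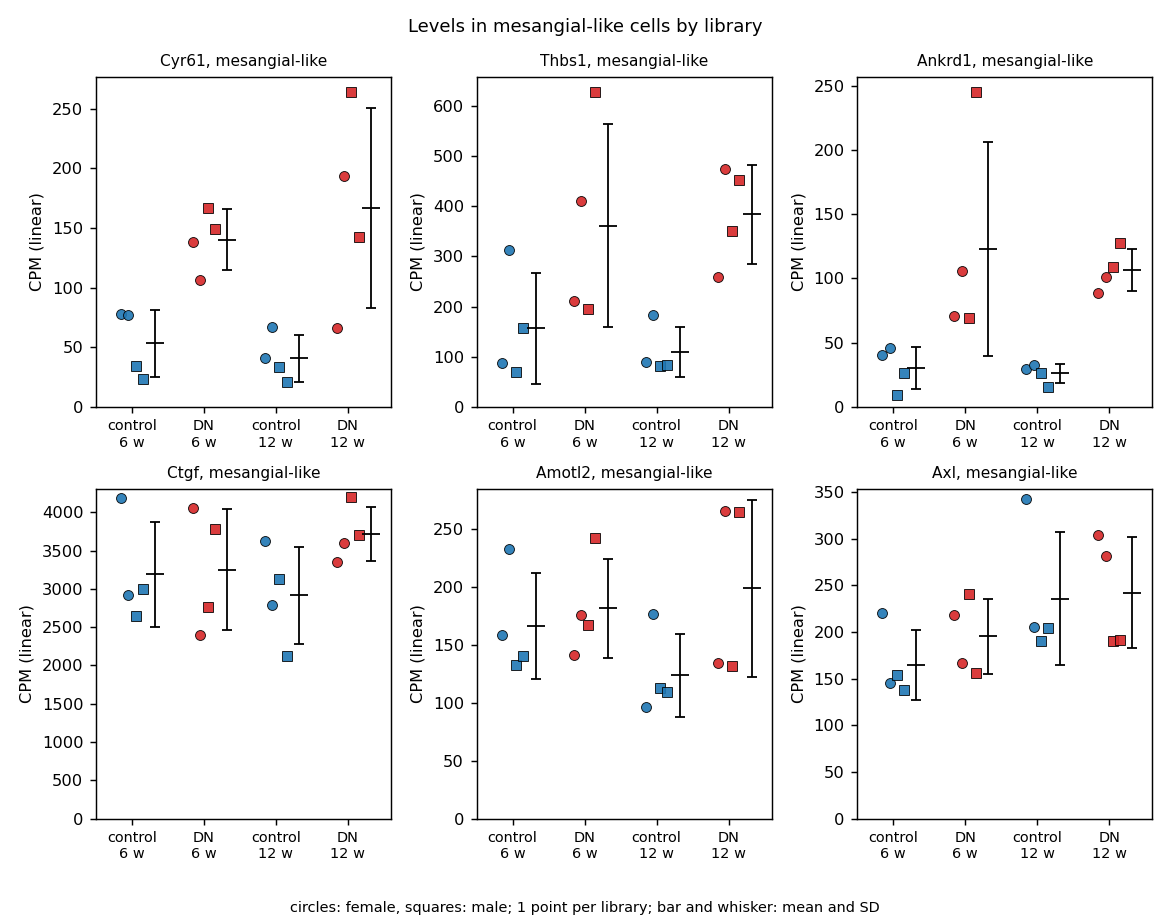
Level of 6 members in mesangial-like cells, in CPM on the vertical axis, with 1 point per library (circles female, squares male) and the mean ± SD of the 4 libraries of each genotype at 6 and 12 weeks. At 12 weeks the DN libraries lie above every control library for Thbs1 and Ankrd1, and for Cyr61 all but 1 DN library do so.

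For Cyr61 at 12 weeks, the mesangial-like cells of the control libraries had 40.9, 66.9, 33.1 and 21.2 CPM (female replicates 1 and 2, then male replicates 1 and 2), and those of the DN libraries had 65.9, 194, 264 and 142 CPM in the same order. Only the first DN female library fell within the control range, and all 4 of 4 same-numbered pairs were higher in DN. The mean went from 40.5 ± 19.4 to 167 ± 83.7 CPM (SD, n = 4 each), a log2 fold change of 2.15 (SE 0.40, 4.43-fold, adjusted p = 0.00479). The call was kept without each library in turn. At 6 weeks the control libraries had 77.8, 77.0, 34.4 and 23.4 CPM and the DN libraries 138, 106, 167 and 149 CPM. The groups did not overlap, and the log2 difference was 1.52 (SE 0.42, adjusted p = 0.162), with an adjusted p of 0.00585 under the replicate block and 0.0448 by DESeq2.

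Thbs1 in mesangial-like cells at 12 weeks had 89.3, 183, 82.1 and 82.9 CPM in the control libraries and 259, 474, 350 and 452 CPM in the DN libraries. Every DN library was above every control library. Its mean was raised from 109 ± 49.2 to 384 ± 99.5 CPM (SD, n = 4 each), a log2 fold change of 1.89 (SE 0.44, 3.71-fold, adjusted p = 0.0209). The call was lost, at an adjusted p of 0.0546 to 0.118, without any 1 of the 12-week libraries control female 1, control male 1, control male 2, DN female 2, DN male 1 and DN male 2, and with adjustment over all classes (0.0864). At 6 weeks the values were 88.0, 312, 68.7 and 156 CPM in control and 212, 411, 195 and 629 CPM in DN. These overlapped across groups, but each DN library was above its same-numbered control. The log2 difference at 6 weeks was 1.28 (SE 0.44, adjusted p = 0.353, and 0.0013 under the replicate block).

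Ankrd1 in mesangial-like cells at 12 weeks had 29.8, 32.4, 26.2 and 15.7 CPM in the control libraries and 88.7, 101, 109 and 128 CPM in the DN libraries, with a wide gap between the groups. The mean went from 26.0 ± 7.35 to 107 ± 16.4 CPM (SD, n = 4 each), a log2 fold change of 2.13 (SE 0.43, 4.38-fold, adjusted p = 0.00814). It did not pass without control male replicate 1 or 2 (adjusted p = 0.0502 and 0.0661). In the 6-week groups the control libraries had 40.6, 45.5, 8.87 and 26.05 CPM and the DN libraries 70.5, 106, 69.2 and 245 CPM. The groups did not overlap then either, and the log2 difference of 2.15 (SE 0.47) had an adjusted p of 0.0568, which was 0.000228 under the replicate block and 0.00312 by DESeq2.

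Ctgf, although a mesangial-like transcript, did not pass in these cells. The 12-week control libraries had 3621, 2794, 3127 and 2120 CPM and the DN libraries 3356, 3595, 4201 and 3702 CPM. The groups overlapped, and the log2 difference was 0.41 (SE 0.22, adjusted p = 0.550, and 0.0206 with a log2 difference of 0.43 under the replicate block). At 6 weeks the means were 3188 ± 685 CPM in control and 3249 ± 792 CPM in DN. Amotl2 in mesangial-like cells at 12 weeks had 96.8, 177, 113 and 110 CPM in control and 134, 266, 132 and 265 CPM in DN, a log2 difference of 0.73 (SE 0.27, adjusted p = 0.205, and 0.00702 under the replicate block). Ajuba (log2 difference −0.03, adjusted p = 0.999) and Axl (0.09, adjusted p = 0.976) were close to level at 12 weeks.

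Genes of another cell type differed with genotype in the same mesangial-like sums. The 8 fixed smooth muscle and renin markers, which include the contractile genes Acta2 and Tagln and the renin gene Ren1, summed to 100.49 to 183 CPM in the control and 307 to 1232 CPM in the DN libraries at 12 weeks, and to 94.2 to 383 and 603 to 3611 CPM at 6 weeks. The calponin gene Cnn1 of that list was at 0 in 3 of the 4 genotype and age groups. Acta2 was part of the higher sums in DN, at 3.72 to 64.1 CPM in control and 175 to 365 CPM in DN at 12 weeks. At 6 weeks it had 11.1 to 73.7 CPM in control and 128 to 476 CPM in DN. Tagln had 12-week means of 15.9 CPM in control and 103 CPM in DN. The largest sums in DN were well above these levels, and the level of Ren1 within them is not given separately. The 4 markers left when Ren1 and those also on the MRTF-SRF list (Acta2, Tagln and Cnn1) were set aside are Myh11, Akr1b7, Mustn1 and Rergl. This choice was made after values were seen, and the full list of 8 is not represented by these 4 markers. Their sum was the lower in DN at 12 weeks and overlapped at 6 weeks, at 1.04 to 2.05% of the smooth muscle and renin-like level in the control libraries at 12 weeks and at 0.384 to 0.778% in the DN libraries, and at 6 weeks at 0.976 to 1.42% and 0.414 to 1.73%. The summed 23 of 23 genes of the tissue dissociation stress list overlapped between genotypes in mesangial-like cells, at 2196 to 2810 CPM in control and 2360 to 4775 CPM in DN at 12 weeks. The libraries' median mitochondrial share of UMIs at 12 weeks was 5.15 to 6.35% in control and 3.55 to 5.64% in DN. The part of the smooth muscle and renin markers, of the stress list and of the mitochondrial share in the mesangial-like differences was not tested.

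In podocyte-like cells both CCN-family members were higher in DN than in control at 12 weeks, where 0.436% of all genes passed (2.6% with the replicate block) and 3.28% did not overlap between genotypes. At 6 weeks 0.16% of genes passed in the class, and 2.19% with the block. These sums are thin: the 12-week groups held 701 control but 129 DN cells, and DN female replicate 1 had 11 cells, 29 Ctgf UMIs and 4 Cyr61 UMIs.

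**Figure D3:**
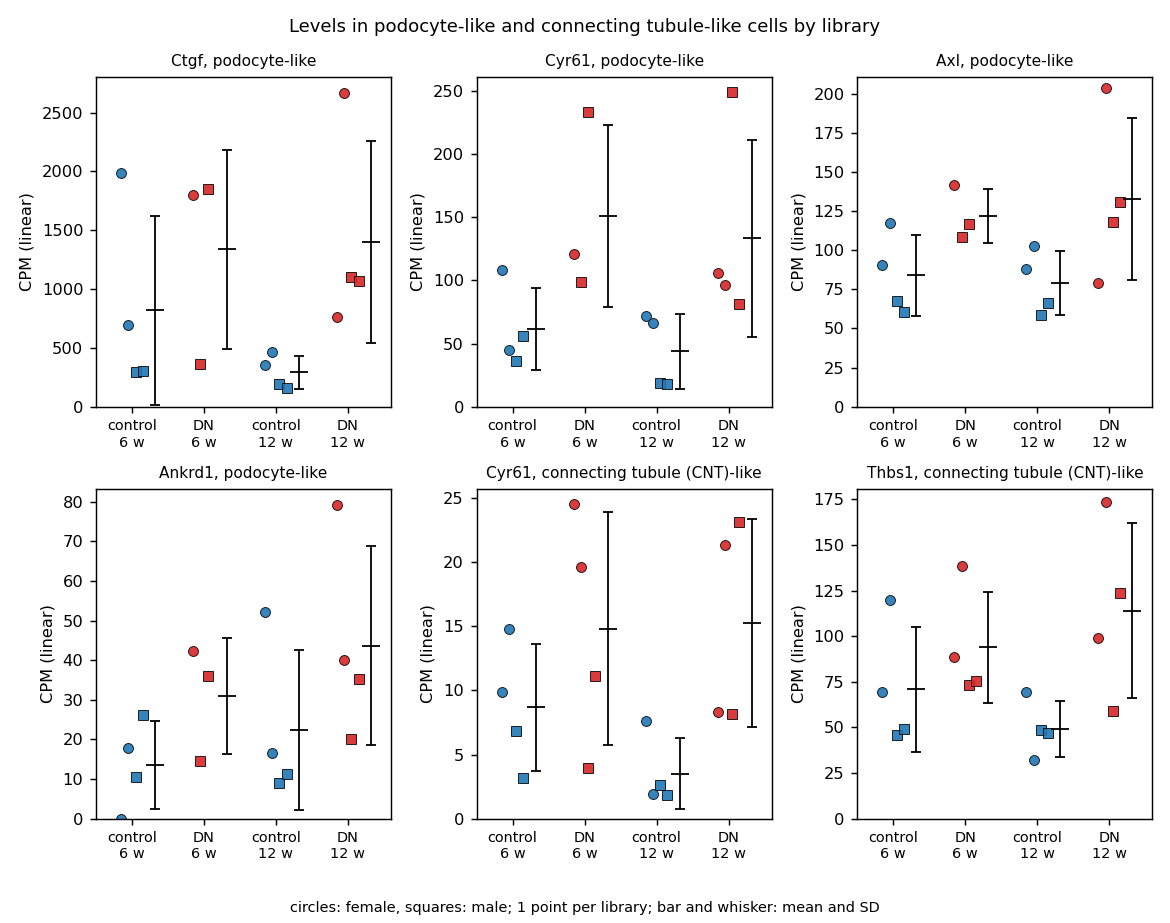
Level of Ctgf, Cyr61, Axl and Ankrd1 in podocyte-like cells and of Cyr61 and Thbs1 in connecting tubule-like cells, in CPM on the vertical axis, with 1 point per library (circles female, squares male) and the mean ± SD of each genotype at 6 and 12 weeks. At 12 weeks no DN library lies within the control range for podocyte-like Ctgf and Cyr61 or connecting tubule-like Cyr61.

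Ctgf in podocyte-like cells at 12 weeks had 359, 462, 196 and 156 CPM in the control libraries and 766, 2668, 1101 and 1069 CPM in the DN libraries. The groups did not overlap, and all 4 of 4 same-numbered pairs were higher in DN. Mean Ctgf was 293 ± 143 CPM in control and 1401 ± 858 CPM in DN (SD, n = 4 each), a log2 fold change of 2.38 (SE 0.45, 5.21-fold, adjusted p = 0.0167). It did not pass without control male replicate 1 (adjusted p = 0.0798), control male replicate 2 (0.116) or DN female replicate 2 (0.141). In the 6-week groups the control libraries had 1990, 692, 295 and 302 CPM and the 3 DN libraries with enough cells (female 2, male 1, male 2) had 1801, 361 and 1850 CPM. These overlapped widely across groups, although all 3 of 3 pairs were higher in DN, and the log2 difference was 1.41 (SE 0.49, adjusted p = 0.563, and 0.000152 under the replicate block).

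Cyr61 in podocyte-like cells at 12 weeks had 71.7, 66.4, 18.8 and 18.1 CPM in control and 106, 96.6, 249 and 81.6 CPM in DN, again without overlap. The mean was 43.8 ± 29.3 CPM in control and 133 ± 77.8 CPM in DN (SD, n = 4 each), a log2 fold change of 2.14 (SE 0.47, 4.39-fold, adjusted p = 0.0471). Without DN male replicate 1 the log2 difference was 1.26 (adjusted p = 0.369), and the call was also lost without control male 1 (0.431), control male 2 (0.377) or DN male 2 (0.0539) of 12 weeks or any of 4 libraries of 6 weeks, control female 2, control male 1, control male 2 and DN female 2 (0.0619 to 0.0773). With Scrublet its adjusted p was 0.0621, and over all classes 0.0512. At 6 weeks the means were 61.5 ± 32.4 CPM (n = 4) and 151 ± 72.2 CPM (n = 3), a log2 difference of 1.64 (adjusted p = 0.276, and 0.000615 under the replicate block). Axl at 12 weeks had 88.0, 103, 58.6 and 66.2 CPM in control and 79.3, 203, 118 and 131 CPM in DN. It was higher in 3 of 4 pairs, with a log2 difference of 0.94 (SE 0.22, adjusted p = 0.0744, and 0.000756 under the replicate block and 0.00243 by DESeq2). Ankrd1 at 12 weeks had 52.2, 16.6, 8.98 and 11.3 CPM in control and 79.3, 40.0, 20.1 and 35.4 CPM in DN, higher in 4 of 4 pairs with overlapping groups (log2 difference 1.08, adjusted p = 0.837). Ajuba (−0.70) and Amotl2 (0.25) did not pass at 12 weeks.

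The dissociation stress list also differed in podocyte-like cells. Its sum was 2436 to 3100 CPM in control and 2665 to 8866 CPM in DN at 12 weeks, and 2310 to 3646 against 4210 to 7120 CPM at 6 weeks, when the groups did not overlap. Its part in the Ctgf and Cyr61 differences was not tested. The 6 mesangial markers summed to 21.0 to 183 CPM in control and 20.1 to 320 CPM in DN podocyte-like cells at 12 weeks, overlapping ranges.

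Connecting tubule (CNT)-like cells, from the segment between the distal tubule and the collecting duct, held the other 2 member tests called at 12 weeks, again of Cyr61 and Thbs1, where 0.89% of all genes passed (4.81% with the replicate block). Cyr61 had 7.60, 1.94, 2.62 and 1.87 CPM in control and 8.35, 21.4, 8.17 and 23.1 CPM in DN, without overlap but with only 7.60 and 8.17 CPM at the gap. Over all classes 4.03% of gene tests did not overlap at 12 weeks, and the share in this class is not given. Mean Cyr61 was 3.51 ± 2.75 CPM in control and 15.3 ± 8.11 CPM in DN (SD, n = 4 each), a log2 fold change of 2.61 (SE 0.43, 6.11-fold, adjusted p = 0.0057). It did not pass without control male replicate 2 (adjusted p = 0.0602) or DN male replicate 2 (0.0558). These levels were low: the PT-like class had group means of 9.41 to 11.6 CPM, above the control CNT-like level. At 6 weeks the log2 difference was 0.61 (8.67 and 14.8 CPM, adjusted p = 1).

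Thbs1 in connecting tubule (CNT)-like cells at 12 weeks had 69.3, 32.1, 48.7 and 46.9 CPM in control and 99.2, 174, 59.0 and 124 CPM in DN. The groups overlapped in DN male replicate 1 and control female replicate 1. On average Thbs1 went from 49.2 ± 15.3 to 114 ± 48.0 CPM (SD, n = 4 each), a log2 fold change of 1.16 (SE 0.26, 2.24-fold, adjusted p = 0.034), and at 6 weeks the log2 difference was 0.45. The 12-week call was lost, at an adjusted p of 0.0840 to 0.241, without any 1 of control female 2, control male 1, control male 2, DN female 2 and DN male 2, and also with Scrublet in place of marker doublets (0.0622) and with adjustment over all classes (0.0587). The stress list summed to 1006 to 1437 CPM in control and 1396 to 2512 CPM in DN in these cells. The libraries' median mitochondrial share of UMIs was 21.9 to 27.1% in control and 7.84 to 25.1% in DN. The part of both in these differences was not tested.

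Each of these 7 differences had the same direction within both sets of libraries. In the 12 deeper libraries alone all 7 passed by edgeR, with log2 fold changes of 2.42 (Cyr61), 2.01 (Thbs1) and 2.20 (Ankrd1) in mesangial-like cells, 2.65 (Ctgf) and 2.44 (Cyr61) in podocyte-like cells, and 2.99 (Cyr61) and 1.37 (Thbs1) in CNT-like cells. These 12 are among the 16 libraries by which the 7 were called, so this is a description and not independent support. The share of all genes that passed in the 12 is not given. The shallower set has 1 library per genotype and age, the female replicate 1 values given first in each series, and there the differences were higher in DN but smallest for Cyr61 in CNT-like cells, at 7.60 and 8.35 CPM.

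In other classes no member passed in the main test at 12 weeks, and several passed with the replicate block. Cyr61 in glomerular endothelial-like cells had 10.4, 9.76, 7.85 and 2.31 CPM in control and 49.0, 43.2, 49.7 and 13.6 CPM in DN, without overlap. The log2 difference was 2.32 (SE 0.44, adjusted p = 0.0882, 5.36e-06 under the replicate block and 0.00436 by DESeq2). It also passed without a filter on low counts, with a term for the 2 sets of libraries, in the deeper set alone, with Scrublet in place of marker doublets and with adjustment over all classes, but in none of the 16 fits that left out 1 library. No gene of this class passed without the block at 12 weeks (0% of its genes, 2.96% with it, and 2.77% without overlap). The stress list summed to 5400 to 7427 CPM in control and 6556 to 10694 CPM in DN in these cells, and its part was not tested. Ctgf in principal-like cells had 51.4, 23.05, 24.6 and 30.3 CPM in control and 108, 131, 149 and 68.7 CPM in DN, without overlap (log2 difference 1.92, SE 0.56, adjusted p = 0.213, and 0.00092 under the block). The share of genes without overlap in principal-like cells is not given (4.03% over all classes).

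With the block 3.84% of genes passed in smooth muscle and renin-like cells (0.223% without), 7.33% in principal-like cells (0.511% without) and 8.3% in intercalated A-like cells (1.19% without, and 3.16% with the block at 6 weeks). In smooth muscle and renin-like cells Ctgf had means of 369 CPM in control and 548 CPM in DN (log2 difference 0.65, adjusted p = 0.287, and 0.00131 under the block). Thbs1 had a log2 difference of 0.95 there (adjusted p = 0.513, and 0.0137 under the block) and of 0.87 in ascending loop-like cells (adjusted p = 0.725, and 0.0153 under the block). In intercalated A-like cells Thbs1 was lower under the block, with means of 24.2 CPM in control and 10.8 CPM in DN (log2 difference −0.98, adjusted p = 0.132, and 0.000179 under the block). Ctgf in that class had a log2 difference of 1.31 (adjusted p = 0.354, and 0.0128 under the block) and Amotl2 of −0.45 (adjusted p = 0.473, and 0.032 under the block). Ctgf in intercalated B-like cells had a log2 difference of 1.11 (adjusted p = 0.405, and 0.033 under the block). In glomerular endothelial-like cells Amotl2 (log2 difference 0.58, adjusted p of 0.0113 under the block) and Tgfbi (−1.62, adjusted p = 0.862, and 0.0397 under the block) were the remaining ones.

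The classes with high levels did not all show a difference. In descending loop-like cells, the leading class for 4 members, the 12-week log2 differences were −0.57 for Thbs1, −0.69 for Cyr61, 0.27 for Ankrd1, −0.04 for Amotl2 and −0.23 for Ajuba, each with an adjusted p of 1. Cyr61 in smooth muscle and renin-like cells, where it was highest, had log2 differences of −0.21 and −0.23 at the 2 ages. Tgfbi in immune-like cells had log2 differences of −0.38 at 6 weeks and 0.30 at 12 weeks. Ctgf in arterial endothelial-like cells was lower in DN by estimate, with 615, 444.5, 106 and 252 CPM in control and 83.9, 73.5, 107.5 and 66.1 CPM in DN at 12 weeks (log2 difference −1.80, adjusted p = 0.710, 0.0662 under the block and 0.0652 by DESeq2).

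**Figure D4:**
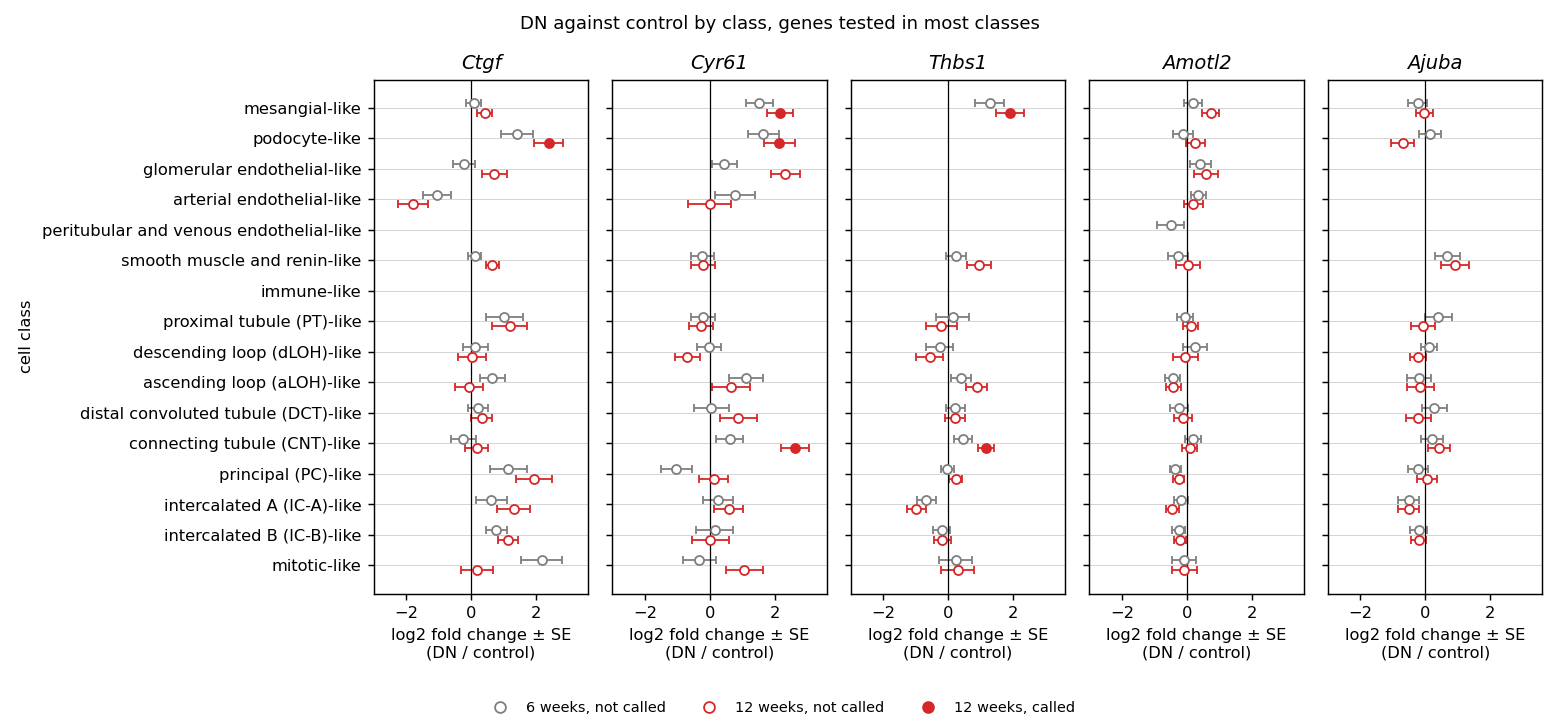
Log2 fold change of DN against control ± standard error for Ctgf, Cyr61, Thbs1, Amotl2 and Ajuba in each cell class, at 6 weeks (grey) and 12 weeks (red), with filled symbols where the adjusted p was at most 0.05. The filled symbols are all at 12 weeks, at 1.16 to 2.61, in mesangial-like, podocyte-like and connecting tubule-like cells.

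At 6 weeks none of 74 tests of members in 16 classes passed by edgeR's quasi-likelihood test (0 called, against 0.0676% of all gene tests), although 12 had an unadjusted p under 0.05 and DESeq2 called 2. Under the replicate block 6 passed (8.11%, against 1.27% of all gene tests), namely Cyr61, Thbs1 and Ankrd1 in mesangial-like cells, Ctgf and Cyr61 in podocyte-like cells, and Thbs1 in intercalated A-like cells (log2 difference −0.68, 0.014 under the block). The libraries of the 2 genotypes did not overlap in 3 of 74, against 2.06% of all gene tests.

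Whether the DN difference itself changed between the ages was tested as an interaction. None of the 73 member tests passed by edgeR, 4 had an unadjusted p under 0.05, and DESeq2 called 0. So the calls at 12 weeks and their absence at 6 weeks are not shown to differ. The tests with the lowest unadjusted p were for Cyr61, whose DN difference changed by an estimated 2.00 on the log2 scale in CNT-like cells (SE 0.61) and by 1.88 in glomerular endothelial-like cells (SE 0.59). The latter passed under the replicate block at 2.08 (adjusted p = 0.0303), the only 1 of the 73, where 0.0594% of all gene tests passed.

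Between 6 and 12 weeks within a genotype, edgeR called 0 of 73 member tests in control mice and 0 of 74 in DN mice, against 0.00215% and 0% of all gene tests. Unadjusted p-values were under 0.05 in 9 and 3 of these tests, and DESeq2 called 0 in both. In control mice the lowest were Cyr61 in CNT-like cells (log2 difference −1.56, 12 against 6 weeks, adjusted p = 0.620) and Ctgf in podocyte-like cells (−1.16). In DN mice Cyr61 in glomerular endothelial-like cells had a log2 difference of 1.37.

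The share of cells with at least 1 UMI was described after thinning each cell to 1000 UMIs. Cells were pooled over the libraries of a group, and no test was made. Among mesangial-like cells at 12 weeks it was 2.93% in control and 14.6% in DN for Cyr61 (12.5 and 47.0% unthinned), 10.8 and 30.0% for Thbs1 (34.3 and 71.7% unthinned) and 1.41 and 7.94% for Ankrd1 (9.44 and 32.5% unthinned). For Ctgf it was 84.0 and 91.6%, near its ceiling in both. The median depths were 4205 and 5877 UMIs, and 4 of 858 and 16 of 1288 cells were too shallow to be thinned. The PT-like class, taken for comparison as a class of low levels, gave 1.15% for Cyr61 (0.476% in intercalated A-like cells), 0.202% for Thbs1, 0.00672% for Ankrd1 and 0.303% for Ctgf, at a median of 8832.5 UMIs. Podocyte-like cells at 12 weeks had Ctgf in 17.0 and 49.1% and Cyr61 in 2.81 and 13.0% of thinned cells (47.5 and 71.3%, and 13.4 and 40.3%, unthinned), with 131 of 701 and 21 of 129 cells too shallow. The pooled control share is weighted to male replicates 1 and 2, which gave 272 and 305 of the 701 cells and had the lowest Ctgf and Cyr61 of that group. The DN libraries gave 11, 32, 41 and 45 cells. In CNT-like cells Cyr61 was in 0.476% of control and 1.66% of DN cells (1.84 and 9.77% unthinned), so the control share was below the PT-like share and the DN share just above it, and whether PT-like cells express Cyr61 or hold free RNA was not tested. Thbs1 was in 4.56 and 7.73% of CNT-like cells (23.5 and 36.9% unthinned).

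The wider pathway was followed by 6 gene lists, read as counts beside the members. Of the 24 Hippo and YAP core genes (kinases, co-activators and TEAD factors), 23 were tested in mesangial-like cells at 12 weeks and 1 passed, Vgll3, which encodes a TEAD-binding cofactor and went from 4.43 to 18.2 CPM (log2 fold change 2.11, SE 0.35, adjusted p = 0.00193). As 3.32% of all genes passed in these cells at 12 weeks, 1 of 23 is near the background. The median log2 difference of the list was 0.05, beside 0.000397 over all genes of the class. Yap1 itself had 72.6 ± 12.7 CPM in mesangial-like cells and 68.0 ± 19.6 CPM in podocyte-like cells, and its 12-week log2 differences were 0.03 and 0.24, neither called. In mesangial-like cells the log2 differences of Wwtr1, which encodes TAZ (0.14), Tead1 (0.26) and Lats2 (0.15) were not called either.

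Of 18 other YAP target genes, 13 were tested in mesangial-like cells. None passed at 12 weeks by edgeR (4 with an unadjusted p under 0.05, 0 by DESeq2 and 3, all higher, under the block), and their median log2 difference was 0.10. At 6 weeks 1 passed, the growth arrest gene Gadd45a, which fell from 37.5 to 12.9 CPM (log2 fold change −1.54, SE 0.23, adjusted p = 0.00787). Of 16 other matricellular genes, 6 were tested at 12 weeks and 2 passed in opposite directions. Fbln5, encoding the elastic-fibre protein fibulin-5 and also on the arterial marker list, rose from 13.6 to 68.4 CPM (log2 fold change 2.42, SE 0.28, adjusted p = 0.000148) and had risen at 6 weeks (2.15, adjusted p = 0.00941). Postn, encoding periostin, fell from 23.5 to 2.10 CPM (log2 fold change −3.27, SE 0.52, adjusted p = 0.00155).

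The MRTF-SRF list, a set of actin-regulated genes that respond to some of the same cues, had 13 of 15 genes tested in mesangial-like cells at 12 weeks, of which 3 rose (9 under the replicate block), and a median log2 difference of 0.70. These were the contractile genes Acta2 (2.56, adjusted p = 0.00507), Tagln (2.64, adjusted p = 0.00752) and Tpm1 (0.82, adjusted p = 0.0230), of which Acta2 and Tagln are also smooth muscle markers. Acta2 had also risen at 6 weeks (2.95, adjusted p = 0.0165). The dissociation stress list had 22 of 23 genes tested and 2 higher at 12 weeks, Klf6 (0.99, adjusted p = 0.00337) and Fos (2.13, adjusted p = 0.0305), with a median of 0.47 (9 higher and 1 lower under the block). Fos had 22.3 ± 7.06 CPM in control and 89.0 ± 99.4 CPM in DN (SD, n = 4 each), so its spread in DN exceeded its mean. Of the receptors and ligands of the members, 12 of 18 were tested in mesangial-like cells at 12 weeks and none was called by edgeR, with 1 at an unadjusted p under 0.05 and 1 called by DESeq2.

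Podocyte-like cells at 12 weeks had 1 of 10 tested receptors and ligands higher, the Axl-family ligand Pros1 (protein S), from 201 to 484 CPM (log2 fold change 1.31, SE 0.26, adjusted p = 0.0228). Of 11 MRTF-SRF genes tested there Tpm1 rose (1.09, adjusted p = 0.0483), and of 18 stress genes Gadd45b (1.74, adjusted p = 0.0199) and Nr4a1 (2.92, adjusted p = 0.0358) rose, with a list median of 1.10. Gadd45b had also risen at 6 weeks (2.74, adjusted p = 0.00117), when the stress list's median was 1.24. The 19 Hippo and YAP core genes tested in podocyte-like cells had a median of −0.07 and none was called by edgeR or DESeq2, with 2 at an unadjusted p under 0.05.

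Summed over all classes at 12 weeks, 1 of 292 tests of Hippo and YAP core genes, 3 of 185 of other YAP targets, 6 of 54 of other matricellular genes, 2 of 175 of receptors and ligands, 4 of 155 of MRTF-SRF genes and 5 of 316 of stress genes passed, beside 0.503% of all gene tests. Under the replicate block these were 8, 28, 11, 12, 22 and 58, beside 3.68%. At 6 weeks 1 test each passed of other YAP targets (189 tested, Gadd45a, lower), other matricellular genes (57), MRTF-SRF genes (162) and stress genes (335), beside 0.0676% of all gene tests, and 18, 7, 11 and 22 passed under the block, beside 1.27%. Of the Hippo and YAP core genes and the receptors and ligands, 0 of 301 and 0 of 184 passed by edgeR at 6 weeks, with 5 and 16 at an unadjusted p under 0.05, 0 and 1 by DESeq2, and 1 and 6 under the block.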

How the data were processed

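Single cells were captured on the 10x platform from 16 kidney libraries, 1 per mouse. Per the submitters' processing notes and the study's methods, the authors aligned and counted reads with Cell Ranger 3.0.2 against mm10, and the deposited matrices hold raw UMI counts per gene and barcode. No other value column was used (0 unused sample columns).

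Barcodes were filtered as the study states. Cells were clustered with leidenalg 0.10.2 (Python 3.11.15) after a Harmony correction of the principal components by library. The members and list genes, 120 together, were left out. Scrublet was run in scanpy 1.11.5. Clusters were named from fixed markers, with naming thresholds set after the clusters were seen. Tubular cells with an endothelial, mesangial, immune or podocyte marker, and non-tubular cells with a tubular marker, were removed as doublets (7124, 9.09% of named cells). This rule did not screen for mixtures among the non-tubular classes, and mitotic-like cells were not checked. Scrublet, which marked 2122 cells (2.25%), was an alternative, and non-tubular cells over 20% mitochondrial UMIs were removed (688). 1 further marker of the study's list and 1 gene chosen by class pattern are not reported here.

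Counts were summed over at least 10 cells, filtered by filterByExpr (minimum count 10) and tested with edgeR 4.0.16 in R 4.3.3 (TMM factors, quasi-likelihood test, Benjamini-Hochberg within a class and comparison, threshold 0.05) wherever each group had at least 3 libraries and both sexes. This step was tested on simulated data. DESeq2 1.42.0 and the other alternatives are in the closing section. The replicate number was checked by the correlation of same-numbered DN and control libraries in their deviations from the group means. Every pair exceeded 0.1 (up to 0.775) in 15 of the 16 classes, and in mitotic-like cells 1 pair had 0.0846, and the numbers were used as blocks. In the female groups replicate 1 lay in the shallower set in both genotypes, and some members shifted with the replicate number in both genotypes. The correlation therefore cannot tell paired mice from a shift shared by replicate number. Age comparisons could not take the block.

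The members and gene lists were chosen with earlier results of these data known. Named genes are the members, at most 5 called genes per list, class and age in mesangial-, podocyte- and glomerular endothelial-like cells, and the 3 genes most like each member in class pattern, at 10 CPM or more in a class. Levels in CPM depend on the other genes of a class, and counting error dominates in sums of few cells.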

Additional observations from a re-analysis of the deposited data

Results flagged for a closer look

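In groups of 4 libraries of 1 genotype and age, 37 sets of member values were checked for a library far from the others by Dixon's criterion, which chance alone meets in about 1 in 20 groups, and 3 met it. Thbs1 in mesangial-like cells of control mice at 12 weeks was 183 CPM in female replicate 2 and 82.1 to 89.3 CPM in the other libraries. Cyr61 in podocyte-like cells of DN mice at 12 weeks was 249 CPM in male replicate 1 and 81.6 to 106 CPM in the others. Cyr61 in connecting tubule-like cells of control mice at 12 weeks was 7.60 CPM in female replicate 1 and 1.87 to 2.62 CPM in the others.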

How the results depend on the processing

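Against 7 member tests called at 12 weeks, 21 were called with the replicate block, 14 without a filter on low counts and 11 with a term for the 2 sets of libraries, and 1 to 8 without single libraries (1 without control male 12-week replicate 2, 2 without control male replicate 1, 3 without DN male replicate 2 and 4 without DN female replicate 2). At 6 weeks, against 0 in the main edgeR test, DESeq2 called 2, the block 6, no filter 9, the term 3, and leaving out single libraries 0 to 1. The interaction gave 1 with the block and 1 without a filter, and 12 against 6 weeks gave 6 in control and 2 in DN without a filter. For the interaction and the ages, the share of all gene tests without a filter is not given, so these counts are not read further. Calls in the gene lists at both ages, with a gene of 2 lists counted once, numbered 25, and 48 by DESeq2, 171 without a filter, 203 with the block, 75 with the term, 38 in the larger set of libraries alone and 12 to 34 without single libraries (14 without control male 12-week replicate 1 and 12 without replicate 2). Of all gene tests at 12 weeks, 0.503% passed in the main test, 0.934% by DESeq2, 1.18% without a filter, 1.17% with the term and 3.68% with the block, and at 6 weeks 0.0676, 0.254, 0.571, 0.283 and 1.27%, so these counts rose for all genes as well. That share is not given for the larger set of libraries alone. Counts stayed within 1.5 times for member tests at 12 weeks with RLE factors (7), Scrublet in place of marker doublets (6), adjustment over all classes (5), at least 20 cells (8), DESeq2 (9) and the larger set alone (9). Neighbouring classes that differed numbered 20 to 27 under the alternatives, against 24.

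Of the 7 calls, mesangial-like Cyr61 passed under 25 of 25 alternatives (log2 fold change 1.78 to 2.63), Ankrd1 under 23, Thbs1 under 18, podocyte-like Ctgf under 22 and Cyr61 under 15, and CNT-like Cyr61 under 23 and Thbs1 under 18. Adjustment over all classes ended the calls of mesangial-like Thbs1 (0.0864), podocyte-like Cyr61 (0.0512) and CNT-like Thbs1 (0.0587) and added glomerular endothelial-like Cyr61 (0.0272), and Scrublet those of podocyte-like Cyr61 (0.0621) and CNT-like Thbs1 (0.0622) and added glomerular endothelial-like Cyr61 (0.0453), which passed under 7 of 25 alternatives in all. The direction of mesangial-like Ctgf at 6 weeks turned without control male replicate 1 (−0.0020), DN female replicate 1 (−0.058) or DN male replicate 2 (−0.071), in a range of −0.071 to 0.24 over single libraries left out. The causes were not tested. In podocyte-like cells at 6 weeks 13 of 16 libraries could be left out, since the others would leave fewer than 3 DN libraries. The list counts, the 20-cell minimum and the adjustment over all classes were alternatives chosen after seeing the data. Counts were low for CNT-like and glomerular endothelial-like Cyr61, and the podocyte-like sums of DN mice held few cells.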

Other observations

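Some members also differed between libraries of the same group by their replicate number. In glomerular endothelial-like cells Amotl2 was 49.5 to 103 CPM in the replicate 1 libraries and 102 to 198 CPM in the replicate 2 libraries, higher in replicate 2 in 8 of 8 groups. In arterial endothelial-like cells it was 52.2 to 74.4 and 76.9 to 125 CPM, again in 8 of 8 groups. The difference was not particular to endothelial classes. Amotl2 was higher in replicate 2 in 7 of 8 groups in descending loop-like cells (means of 212 and 424 CPM) and in mesangial-like cells (134 and 201 CPM). In CNT-like cells it was so in 4 of 8. Thbs1 in mesangial-like cells had a mean of 168 CPM in replicate 1 and 338 CPM in replicate 2, higher in 8 of 8. In descending loop-like cells its means were 184 and 378 CPM, higher in 7 of 8. The replicate 1 libraries held 311 to 1043 glomerular endothelial-like cells each and the replicate 2 libraries 31 to 281.

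Members were also counted in clusters left unnamed. A cluster of 1264 cells led by Lrp1, Col6a3, Itga8 and Pdgfra had 986 CPM of Ctgf, 135 CPM of Thbs1 and 86.9 CPM of Axl. It held 6 mesangial markers but scored higher for fibroblasts on 1 marker, at 0.122 times its libraries' median depth, and whether these are shallow mesangial cells was not tested. Another of 444 cells led by Nr2f1, Sfrp2, Ptn and Adamts5 had 1420 CPM of Ctgf and 122 CPM of Axl. It held 6 mesangial but also 7 glomerular endothelial markers, at 2.05 times its libraries' median depth, and so was left unnamed. A cluster of 158 cells led by Ear2, Pou2f2 and Lyz2, had 67.5 CPM of Tgfbi and 301 CPM of Ctgf. It held 5 immune and 6 glomerular endothelial markers, at 1.24 times the median depth. Whether these 2 clusters are mixed cells was not tested.

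Outside the classes and members described, list genes called at 12 weeks were singled out after their values were seen. Principal-like cells had higher Wisp1 (log2 fold change 2.75, adjusted p = 0.0146 by edgeR), a CCN-family relative of Ctgf, together with the matricellular genes Spp1 (2.15, 0.0152) and Smoc2 (1.54), the kinase gene Nuak2 (0.95) and the Axl ligand Gas6 (0.76), the last 3 of which had an adjusted p of 0.0492 each. CNT-like cells had higher Myof (1.90, adjusted p = 0.00171 by edgeR) and Ier3 (2.01, 0.0216). Intercalated A-like cells had higher Spp1 (1.49, 0.00522), and intercalated B-like cells higher Myof (0.98, adjusted p = 0.0273).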
